A study of Homo sapiens with 21 samples.

Results

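The genes described here encode the centromere, the kinetochore and the spindle checkpoint, with the chromosomal passenger complex and 1 centriole protein. They were a list of 37 gene symbols, kept where the deposited value was 10 or more in 3 or more libraries. Of the 37 members, 36 passed among the 11579 genes that passed of the 16383 in the table. Each of the 36 reached 10 in 17 to 21 of the 21 libraries, so none passed through the proliferating group alone. SPC25, a subunit of the Ndc80 complex, did not pass and is described by its reads only.

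All libraries were made from poly(A) RNA of IMR90, a human fibroblast line established from lung and described in the labels as wild type. The study measured gene expression by RNA sequencing in 7 groups of 3 libraries. Proliferating cells received no irradiation and no transfection. The other 6 groups were irradiated, then given 5 nM siRNA with DharmaFECT 4 and 7 days later, with harvest on day 10. They are labelled senescent, a state of lasting exit from the cell cycle. Of these, NT3 and NT4 received a non-targeting siRNA each and are called the senescent controls. The remaining groups received siRNA against CCND1 (cyclin D1), against CDK4, against CDK6, or against CDK4 and CDK6 together, called the dual knockdown. The series description numbers the controls NT1 and NT2, whereas the sample titles, followed here, number them 3 and 4. No siRNA sequence is in the labels. Each target has 1 knockdown group of its own, and CDK4 and CDK6 were also targeted in the dual knockdown. Effects outside the target therefore cannot be told apart from those of the target. Irradiation and transfection likewise cannot be told apart in comparisons with proliferating cells. Nothing in the labels says that the 3 libraries of a group came from separate cultures, so p-values measure the spread between these libraries, which may be technical.

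The centromere is marked by nucleosomes that hold the histone variant CENP-A. A constitutive centromere-associated network binds these nucleosomes and carries the outer kinetochore, whose KNL1, Mis12 and Ndc80 complexes grip spindle microtubules in mitosis. Unattached kinetochores gather a fibrous corona and the checkpoint proteins of the Mad and Bub families, which hold back anaphase, while the passenger complex built around Aurora B corrects faulty attachments. Many of these genes are transcribed mainly in G2 and mitosis under control of the DREAM complex, which represses them in resting cells, and of MuvB with B-Myb and FOXM1, which activate them. Cyclin D with CDK4 or CDK6 phosphorylates the retinoblastoma family and so stands upstream of that switch.

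Promoters of 6 members are printed because the members differ in whether they hold the cell cycle genes homology region, the element through which MuvB complexes bind. It was searched for as TTTGAA or TTCGAA on both strands from 250 bases before to 50 bases after the first start that RefSeq lists (GRCh38.p14). RefSeq promoters matched 29 of the 37 members, 28 of them among the 36 tested. Of these 28, 15 (53.6%) held a match, against 11.4% of the 9397 tested genes with a promoter and 16.6% of all 27305 promoters. The 6 sequences are the 100 bases before the start, with matches in capitals. CENPA, BUB1B, ZWINT and INCENP held a match, in ZWINT on the reverse strand, and AURKB and CENPT held none in the window.
CENPA: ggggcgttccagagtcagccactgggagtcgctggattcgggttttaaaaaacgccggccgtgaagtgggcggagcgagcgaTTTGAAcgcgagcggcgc
BUB1B: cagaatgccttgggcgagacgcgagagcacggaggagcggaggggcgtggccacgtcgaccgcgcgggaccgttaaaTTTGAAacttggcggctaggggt
ZWINT: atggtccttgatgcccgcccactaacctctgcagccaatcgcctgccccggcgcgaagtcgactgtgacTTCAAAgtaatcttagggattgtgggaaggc
INCENP: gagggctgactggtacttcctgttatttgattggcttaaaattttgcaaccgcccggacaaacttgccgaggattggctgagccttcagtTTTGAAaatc
AURKB: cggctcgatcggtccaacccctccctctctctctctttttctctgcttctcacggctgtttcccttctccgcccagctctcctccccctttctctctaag
CENPT: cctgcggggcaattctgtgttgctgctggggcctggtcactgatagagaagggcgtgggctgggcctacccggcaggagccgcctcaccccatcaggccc
They lie at chr2:26785956-26786055 (plus strand), chr15:40160969-40161068 (plus), chr10:56361260-56361359 (minus), chr11:62123911-62124010 (plus), chr17:8210226-8210325 (minus) and chr16:67847694-67847793 (minus). A match is a run of letters and not a measured binding site.

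Values are the authors' normalised read counts, which were whole reads divided by 1 factor per library as far as their steps show. Depth ranged from 12892442 to 21822152 reads per library, summed over the genes of the table. The targeted genes were checked first. CDK4 stood at 1158 to 1356 in the 6 control libraries, 105.6 to 109.9 after CDK4 siRNA (mean 8.67% of controls) and 115 to 123 in the dual knockdown (9.41%). CDK6 stood at 4147 to 5689 in controls, 727 to 834 after CDK6 siRNA (16.4%) and 930.4 to 998 in the dual knockdown (20.6%). CCND1 stood at 25615 to 48813 in controls and 4198 to 5149 after its siRNA (11.8%). For all 5 the groups did not overlap, and the exact two-sided permutation test gave p = 0.0119 (adjusted over the 5 tests, 0.0119), the smallest that 84 splits allow. Targeted genes also moved after other siRNAs. After CDK6 siRNA, CDK4 stood at 889 to 1015 (76.1% of controls) and CCND1 at 54413 to 57146 (141.2%). CCND1 stood at 52700 to 57566 (141.1%) in the dual knockdown, and CDK4 at 1072 to 1148 (88.0%) after CCND1 siRNA. These ranges did not overlap the controls, and their part in the results below was not tested. CDK6 after CDK4 siRNA, at 5163 to 6397 (126.7%), did overlap. All 11 fibroblast markers were detected, with a summed value of 558600 to 1005000. Summed epithelial markers reached 1144 to 2403, almost all of it KRT8 and KRT18. Immune markers summed to 654 to 688 in proliferating cells, 888 to 1415 in controls and 883 to 1604 after knockdown, almost all of it CD68, and endothelial markers to 7.09 to 9.61, 35.0 to 48.2 and 16.02 to 37.88. The lineage markers KRT5, SFTPC, CDH5, PTPRC and CD3E were under 10 in every library, with PTPRC reaching 8.903 in an NT4 library. EPCAM stood at 12.24 to 47.75 across the libraries. CD14 reached 37.95 in NT4, VWF 22.33 after CCND1 siRNA, and PECAM1 and KDR 20.63 and 18.45 in NT3. CDH1 reached 11.04 in the dual knockdown. The part of these markers in the results below was not tested. NT3 replicate 3 stood apart from its 2 companions, with a chi-square per gene of 39.2 and 60.2 against 2.98 to 8.07 in the other pairs of libraries within a group.

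Senescent control cells held far less RNA of nearly every member than proliferating cells. Of 36 members, 35 fell and none rose in the limma test (adjusted p under 0.05), and CENPT was the exception. None was higher at an unadjusted p under 0.05, in edgeR or in DESeq2. Across all tested genes, 36.1% fell and 32.6% rose. The median log2 change over the 36 members was -2.28, against -0.03 over all tested genes. The median member kept 20.8% of its proliferating level, from 8.98% for NUF2 to 107.9% for CENPT. These are bulk samples, so fewer cycling cells and less RNA per cell cannot be told apart. The 7 genes counted as signs of cycling cells (MKI67, TOP2A, CCNA2, CCNB1, CDK1, PCNA and MCM2) all fell too, with a median log2 change of -2.81, and their part in the members' fall was not tested.

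**Figure D1:**
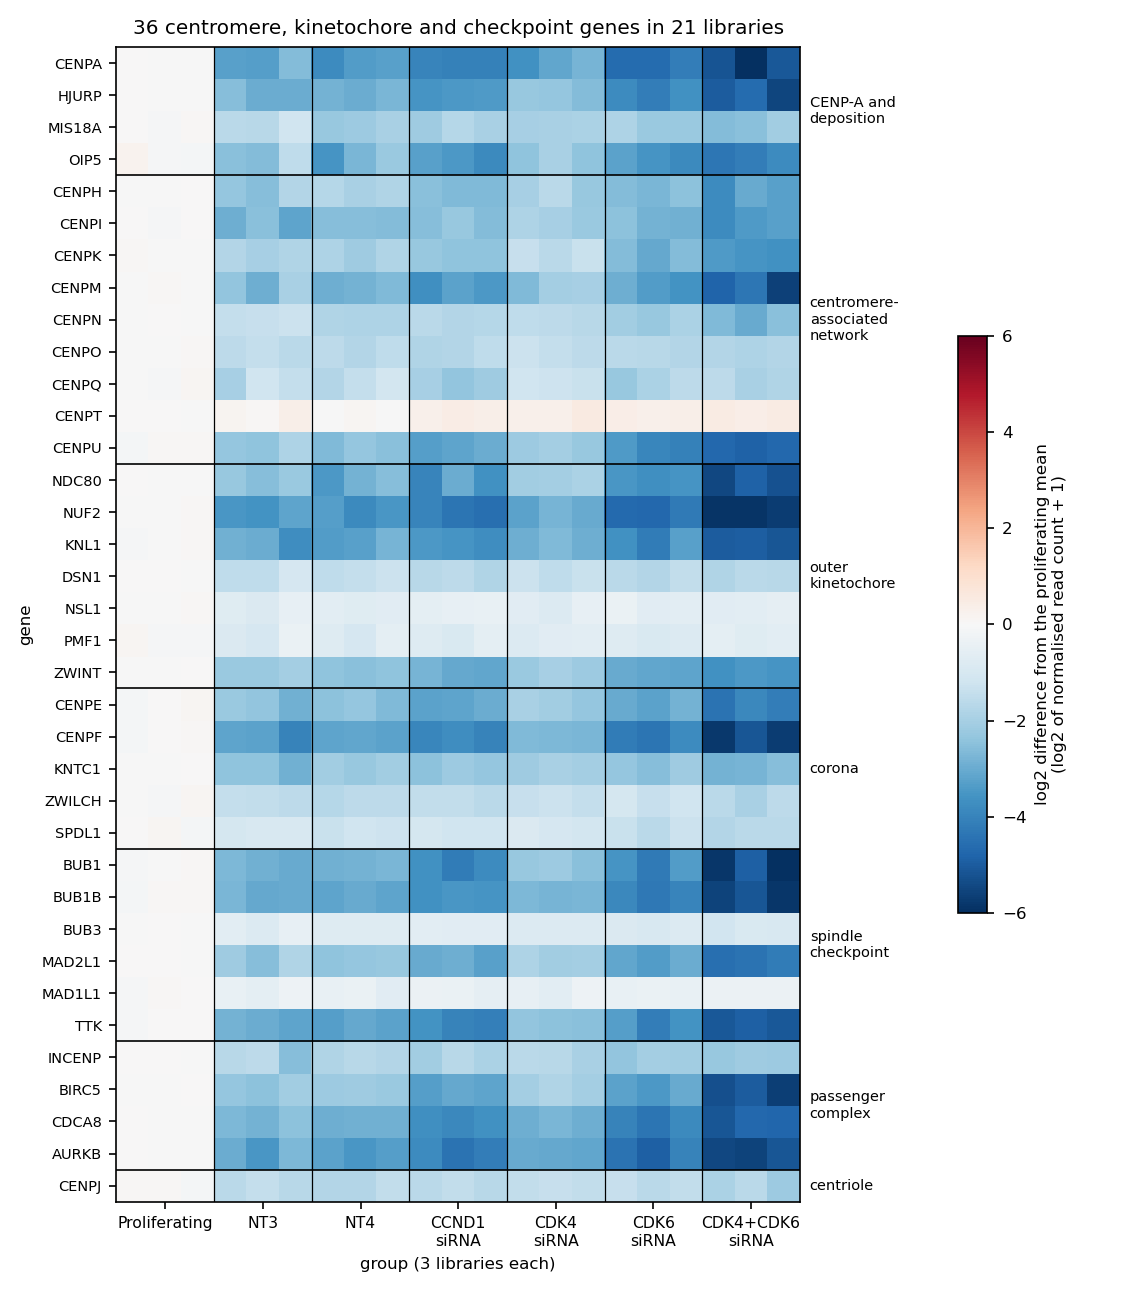
Log2 difference of each of 36 genes from its mean in proliferating cells, computed on normalised read counts plus 1, with genes in rows ordered by role and the 21 libraries in columns. Every irradiated library is blue for most genes, palest for NSL1, PMF1, BUB3 and MAD1L1, deepest in the dual knockdown, and CENPT alone stays near or above 0, with its lowest value at -0.04 in an NT4 library.

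CENP-A itself and the factors that deposit it all fell, 4 of 4, with a median log2 change of -2.67. CENPA measured 449.8, 438 and 437 in proliferating cells, 44.6, 43.3 and 72.8 in NT3 and 31.2, 42.8 and 45.2 in NT4. All 6 control libraries lay below every proliferating library, and the log2 change was -3.26 (SE 0.32, limma adjusted p = 7.1e-09). HJURP, the chaperone that carries CENP-A to the centromere, kept 14.03% of its proliferating level, and OIP5, a subunit of the Mis18 complex, kept 18.45%. MIS18A, another subunit of that complex, which licenses the centromere for deposition, fell least of the 4. It measured 382, 366 and 398 in proliferating cells, 122, 121 and 166 in NT3 and 79.0, 82.7 and 99.1 in NT4. The change of MIS18A was -1.81 (SE 0.14, limma adjusted p = 1.5e-10), again without overlap.

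In the centromere-associated network, 8 of 9 members fell and the median log2 change was -1.90. CENPI, a subunit placed with CENPH and CENPK in 1 subcomplex, fell most. It measured 622, 586 and 620.0 in proliferating cells, 77.9, 105.7 and 68.0 in NT3 and 101.3, 102.2 and 100.99 in NT4, a change of -2.72 (SE 0.14, limma adjusted p = 2.4e-13). Its partners CENPH and CENPK kept 25.1% and 26.7% of their proliferating levels. CENPT, which links the inner kinetochore to the Ndc80 complex, did not follow. It measured 719.7, 716 and 694 in proliferating cells, 789, 743 and 907 in NT3 and 706, 762 and 691 in NT4. These ranges overlapped, and the change of 0.10 (SE 0.07, limma adjusted p = 0.166) did not pass the threshold. The CENPT promoter printed above held neither motif. The 13 tested members without a motif, CENPT among them, had a median change of -1.54, and a link was not tested. Setting proliferating cells against NT3 alone, centring libraries on their median or quantile normalization put CENPT past the threshold as higher, with changes of up to 0.22.

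All 7 tested members of the outer kinetochore fell, with a median log2 change of -2.31. NUF2, a coiled-coil subunit of the Ndc80 complex, showed the largest fall of all members. It measured 744, 756 and 808 in proliferating cells, 68.5, 62.4 and 84.9 in NT3 and 76.8, 53.5 and 68.3 in NT4, a change of -3.47 (SE 0.16, limma adjusted p = 3.7e-14). NDC80, its partner at the microtubule, kept 16.4% of its proliferating level and the scaffold KNL1 11.4%. The Mis12 complex, which joins the outer kinetochore to the centromere, had the smallest changes. Its subunit NSL1 measured 543, 549 and 583 in proliferating cells, 342, 305 and 398 in NT3 and 359, 333 and 349 in NT4. That was a change of -0.69 (SE 0.09, limma adjusted p = 4.3e-07), with all control libraries still below the proliferating ones. PMF1, another subunit of the Mis12 complex, changed by -0.78 and DSN1 by -1.39. ZWINT, which binds KNL1, changed by -2.31. SPC25 had 10, 7 and 12 reads in proliferating cells and 0 to 5 in each irradiated library. With no filter on low values it was also past the threshold, which made 36 of 37 members lower.

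The 5 members of the corona and its adaptors all fell, with a median log2 change of -2.36. CENPF, a large coiled-coil protein of the corona and a customary marker of G2, measured 5078, 5569.7 and 5627 in proliferating cells. In NT3 it measured 603, 593 and 333 and in NT4 613, 616 and 578, a change of -3.31 (SE 0.16, limma adjusted p = 5.5e-14). SPDL1 (Spindly), an adaptor that brings dynein to the kinetochore, kept the largest share of the 5. It measured 907.5, 986 and 823 in proliferating cells, 435, 460.4 and 458 in NT3 and 358, 389 and 382 in NT4, a change of -1.13 (SE 0.08, limma adjusted p = 3.1e-11). The RZZ complex recruits dynein and the Mad proteins. Of its subunits, KNTC1 (Rod) kept 19.8% of its proliferating level and ZWILCH 34.2%. The motor CENPE kept 18.0%.

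All 6 spindle checkpoint members fell, with a median log2 change of -2.54, yet they split widely. TTK (Mps1), the kinase that starts checkpoint signalling, measured 778, 846 and 844 in proliferating cells, 113, 102.9 and 92.2 in NT3 and 81.2, 98.3 and 86.6 in NT4. Its change was -3.10 (SE 0.15, limma adjusted p = 7.3e-14). BUB1, the kinase whose mark recruits the passenger complex, kept 13.96% of its proliferating level and BUB1B (BubR1) 12.2%. MAD2L1 (Mad2), the effector that sequesters CDC20, kept 21.3%. MAD1L1 (Mad1), which anchors Mad2 at the kinetochore and also sits at nuclear pores, moved least. It measured 537, 588 and 581 in proliferating cells, 411, 378 and 464 in NT3 and 416, 437 and 351 in NT4. The change was -0.48 (SE 0.08, limma adjusted p = 2.5e-05), and every control library lay below every proliferating one. BUB3, a partner of both Bub kinases, kept 61.65%.

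The passenger complex fell in 4 of 4 members, with a median log2 change of -2.51. AURKB, its kinase, measured 899.6, 878 and 865 in proliferating cells, 112.1, 77.3 and 136 in NT3 and 93.5, 77.9 and 89.4 in NT4, a change of -3.19 (SE 0.18, limma adjusted p = 1.4e-12). INCENP, its scaffold, measured 1179, 1191 and 1144 in proliferating cells, 374, 397 and 198 in NT3 and 332, 367 and 346 in NT4, a change of -1.83 (SE 0.15, limma adjusted p = 4.5e-10). The lowest INCENP value was that of NT3 replicate 3. BIRC5 (survivin) kept 21.3% of its proliferating level and CDCA8 (borealin) 14.6%. CENPJ, which despite its name builds centrioles and not kinetochores, changed by -1.62 (SE 0.11, limma adjusted p = 1.0e-11). It measured 556, 563 and 499 in proliferating cells, 172, 201 and 169.9 in NT3 and 160.3, 158 and 191 in NT4.

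The promoter groups can be set beside these changes as a description. The 15 tested members with a match had a median log2 change in senescence of -2.65, from -3.47 to -1.13. The 13 without one had a median of -1.54, from -3.19 (AURKB) to 0.10 (CENPT), so the ranges overlapped. In the dual knockdown the medians were -2.14 (from -2.82 to -0.22) with a match and -0.28 (from -2.41 to 0.37) without. These ranges overlapped as well. INCENP held a match and AURKB held none in its window. That window was set by the first start listed and lies within the AURKB gene (chr17:8204731-8210575). Any AURKB start farther upstream was therefore not searched.

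**Figure D2:**
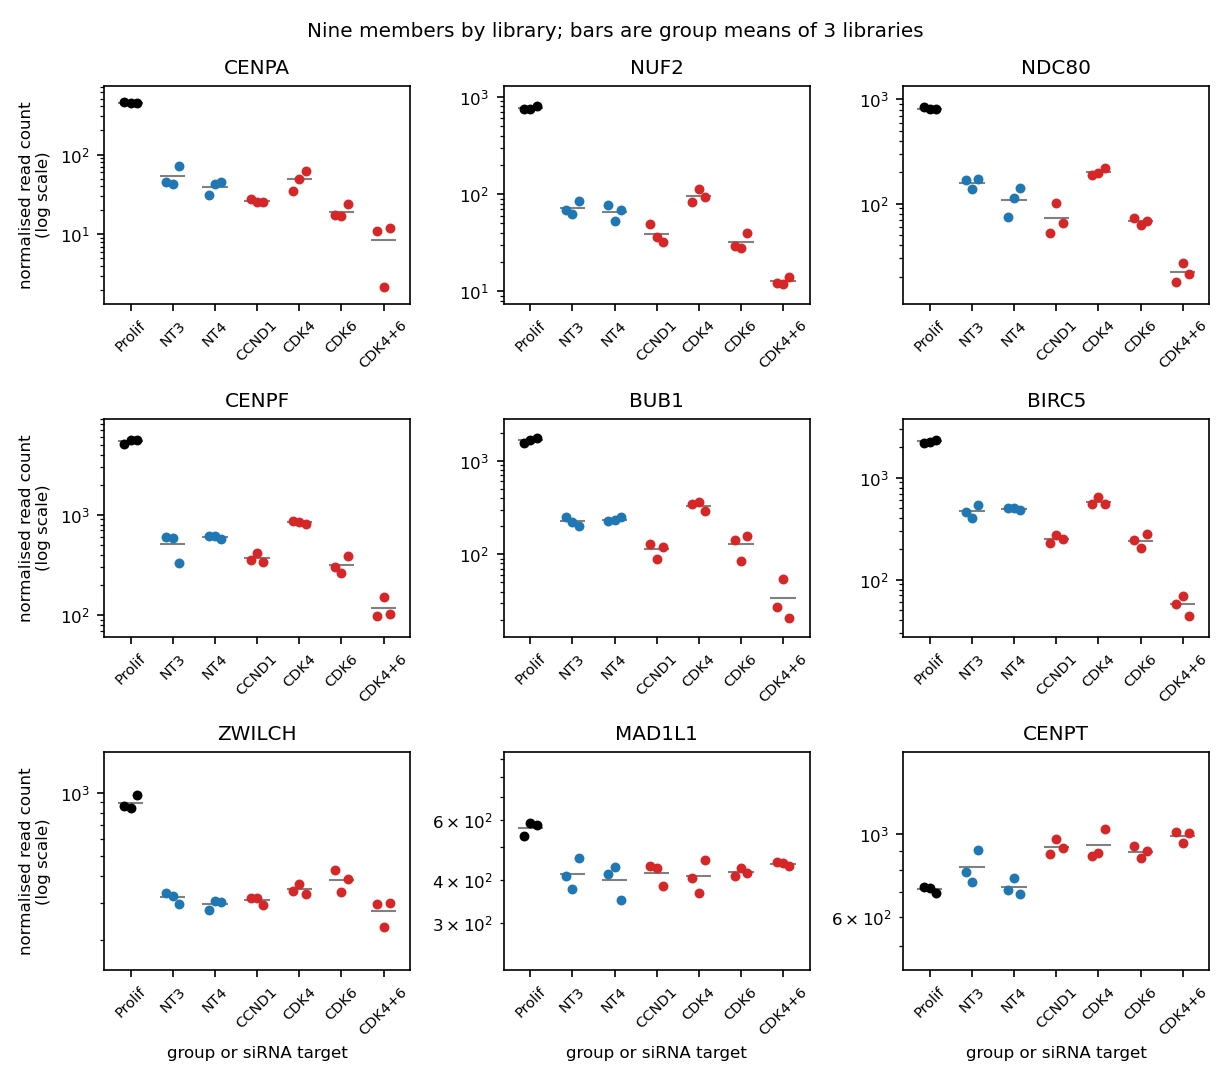
Normalised read count, on a log axis, of 9 members in each of the 21 libraries, with points for libraries and grey bars for group means (black, proliferating; blue, non-targeting controls; red, knockdowns). CENPA, NUF2, NDC80, CENPF, BUB1 and BIRC5 drop in controls and again in the dual knockdown, MAD1L1 drops once and stays level, and CENPT is highest in the knockdowns.

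The 2 non-targeting controls differed in some of these genes and in many others. In NT4 against NT3, 5 of 36 members were lower and 1 was higher, against 13.1% lower and 14.7% higher among all tested genes. The 5 lower members are thus near the share of all genes, and the 1 higher member is under it. The median log2 difference was -0.10 over the members and -0.01 over all tested genes. The lower members were MIS18A (-0.64), CENPN (-0.48), NDC80 (-0.58), ZWINT (-0.28) and SPDL1 (-0.26). KNTC1 was the higher one, at 213, 212 and 153 in NT3 and 269, 229.7 and 263 in NT4, a difference of 0.41 (SE 0.13, limma adjusted p = 0.0215) with no overlap. The low value of 153 was that of NT3 replicate 3, and without that library the difference was 0.25 (limma adjusted p = 0.129) and 3 members were called. The KNTC1 call was also lost without NT4 replicate 1 (0.37) or 3 (0.38). That of NDC80 was lost without NT3 replicate 1 (-0.54) or 3 (-0.53) or NT4 replicate 1 (-0.33) or 2 (-0.63). That of ZWINT was lost without NT3 replicate 3 (-0.21) or NT4 replicate 1 (-0.29) or 2 (-0.25), and that of SPDL1 without NT3 replicate 2 (-0.24) or 3 (-0.25) or NT4 replicate 1 (-0.23) or 3 (-0.27). Without NT4 replicate 1, 2 members were called, and without NT3 replicate 2, 8. MIS18A in NT3 replicate 3 was 166 beside 122 and 121 in its companions, and CENPF was 333 beside 603 and 593.

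Knockdown of CCND1 lowered a majority of the members further. Of 36, 20 fell and 1 rose, against 14.4% and 16.7% of all tested genes. The median log2 change was -0.54, against -0.01 over all tested genes, and the median member stood at 67.8% of the controls. The passenger complex fell in 3 of 4 members, the checkpoint in 4 of 6, the outer kinetochore in 4 of 7, the centromere-associated network in 5 of 9, the deposition factors in 2 of 4 and the corona in 2 of 5. BUB1 fell most, at 130, 89.6 and 121 after knockdown against 203 to 253 in the controls, a change of -1.03 (SE 0.21, limma adjusted p = 0.0008). CDCA8, at 89.3, 79.0 and 91.3 against 149 to 212, changed by -0.96 (SE 0.12, limma adjusted p = 4.35e-06), and BIRC5 by -0.95. For both genes named with values, all knockdown libraries lay below all control libraries. CENPA stood at 27.7, 25.6 and 25.5, below each of its 6 control values, but its change of -0.76 (SE 0.32, limma adjusted p = 0.0728) did not pass. CENPT was the 1 member that rose, at 884, 970 and 919 against 691 to 907 in the controls, a change of 0.28 (SE 0.07, limma adjusted p = 0.00303). Its ranges overlapped through NT3 replicate 3, and with NT3 as the only control the change was 0.19 and not past the threshold. Of the cycling-cell genes, 6 of 7 fell, with a median change of -0.64. Their part was not tested.

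Knockdown of CDK4 alone was followed by a rise of 7 of the 36 members and a fall of none, against 7.55% lower and 8.46% higher among all tested genes. The median log2 change was 0.19, against 0.00 over all tested genes, and the median member stood at 113% of the controls. None was lower at an unadjusted p under 0.05, in edgeR or in DESeq2. Of the 7, 3 belong to the centromere-associated network (CENPI, CENPK and CENPT), 2 to the Ndc80 complex (NDC80 and NUF2), 1 to the corona (CENPF) and 1 to the checkpoint (TTK). CENPI measured 169.5, 151 and 130 after CDK4 siRNA against 68.0 to 105.7 in controls, a change of 0.70 (SE 0.14, limma adjusted p = 0.0016). TTK measured 157, 149 and 144 against 81.2 to 113, a change of 0.65 (SE 0.15, limma adjusted p = 0.0046). CENPF measured 875, 844 and 813 against 333 to 616, a change of 0.63 (SE 0.16, limma adjusted p = 0.0083). In these 3 genes every CDK4 knockdown library lay above every control, and far below every proliferating library. NDC80 measured 189, 199 and 219 against 74.6 to 171, a change of 0.64 (SE 0.18, limma adjusted p = 0.0213). NUF2 measured 82.4, 111.6 and 94.2 against 53.5 to 84.9, which overlap, and its change of 0.47 (SE 0.16, limma adjusted p = 0.0497) lay at the threshold. CENPK changed by 0.45. CENPT measured 875, 886 and 1033 against 691 to 907, a change of 0.28. MKI67, CCNA2 and CCNB1 rose as well, by 0.58, 0.55 and 0.49, while MCM2, TOP2A, CDK1 and PCNA did not pass, and their part in the rises was not tested.

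The calls after CDK4 siRNA depended on the control, on the number of libraries and on the test. With NT3 as the only control, NDC80 (0.35, limma adjusted p = 0.247), NUF2 (0.41, limma adjusted p = 0.11) and CENPT (0.20, limma adjusted p = 0.0602) no longer passed. With NT4 as the only control, CENPF (0.49, limma adjusted p = 0.0938) and NUF2 (0.54, limma adjusted p = 0.0684) no longer passed. CENPI, CENPK and TTK passed against either control. Leaving out any 1 CDK4 knockdown library ended the calls of NDC80 (0.58 to 0.68) and NUF2 (0.36 to 0.58), and so did, for NUF2, leaving out NT3 replicate 1 (0.46) or 2 (0.43) or NT4 replicate 2 (0.40) or 3 (0.49). Leaving out CDK4 knockdown replicate 3 ended the call of CENPT (0.21) and, like replicate 1, that of CENPK (0.41 and 0.42). The number of members called ranged from 4 without CDK4 knockdown replicate 1 to 10 without NT3 replicate 3, and was 13, all higher, with edgeR or DESeq2 on the recovered reads.

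Knockdown of CDK6 lowered 23 of 36 members and raised 2, against 20.8% and 21.1% of all tested genes. The median log2 change was -0.56, against -0.01 over all tested genes, and the median member stood at 68.6% of the controls. CENPU, which recruits the kinase PLK1 to the centromere, fell most, at 79.4, 55.0 and 50.8 against 136 to 239 in controls. Its change was -1.45 (SE 0.14, limma adjusted p = 4.2e-08), with no overlap. CDCA8 and AURKB of the passenger complex changed by -1.28 and -1.25, and CENPA by -1.20. AURKB measured 39.7, 28.9 and 54.6 against 77.3 to 136. TTK measured 83.5, 44.7 and 68.0 against 81.2 to 113, which overlap. Its change was -0.58 (SE 0.15, limma adjusted p = 0.00385), and -0.33 without CDK6 knockdown replicate 2, no longer past the threshold. ZWILCH moved the other way. It measured 431, 338 and 386 against 276 to 332 in controls, a change of 0.33 (SE 0.09, limma adjusted p = 0.0053) with no overlap, and 0.24 (limma adjusted p = 0.0626) without CDK6 knockdown replicate 1. KNTC1, of the same complex, changed by 0.02 (limma adjusted p = 0.89). CENPT rose again, at 925, 864 and 898, a change of 0.23 (SE 0.07, limma adjusted p = 0.0074), and 0.14, not past the threshold, with NT3 as the only control. All 7 cycling-cell genes fell, with a median change of -0.67, and their part was not tested.

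**Figure D3:**
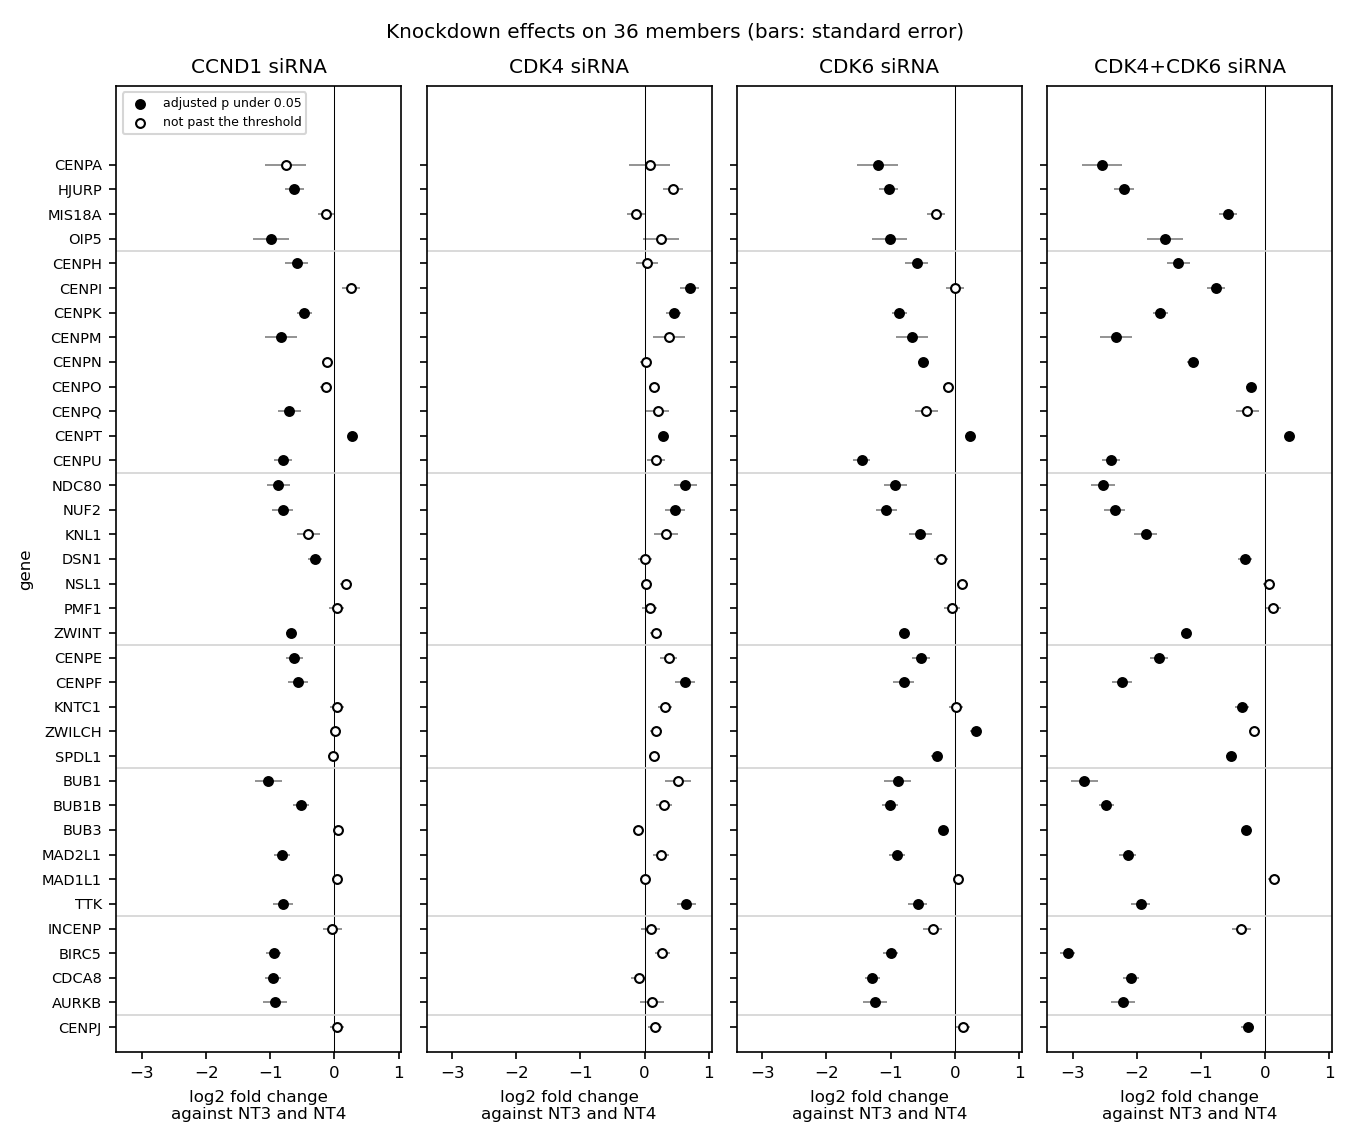
Log2 fold change of 36 members after each knockdown against the 6 control libraries (horizontal axis, with bars for the standard error), filled where limma's adjusted p was under 0.05. Most points lie left of 0 after CCND1 and CDK6 siRNA, right of 0 or at it after CDK4 siRNA, and farthest left after both CDK4 and CDK6 siRNA, where 29 members fell and CENPT rose.

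Together, siRNA against CDK4 and CDK6 gave most members their lowest group mean, with CENPQ, CENPT, NSL1, PMF1 and MAD1L1 as exceptions. Of 36, 29 fell and 1 rose, against 21.5% and 22.5% of all tested genes. The median log2 change against the controls was -1.46, compared with 0.00 over all tested genes. The median member stood at 35.1% of the controls and 8.50% of its proliferating level. BIRC5 fell most, at 57.4, 69.9 and 44.05 against 405 to 539 in controls and 2216 to 2344 in proliferating cells. That was a change of -3.08 (SE 0.12, limma adjusted p = 2.5e-14) and left 11.8% of the control level. BUB1 measured 27.6, 54.6 and 21.02 against 203 to 253, a change of -2.82 (SE 0.21, limma adjusted p = 6.0e-10). NDC80 measured 17.7, 27.3 and 21.02 against 74.6 to 171, a change of -2.53 (SE 0.18, limma adjusted p = 4.35e-10). None of these genes overlapped between the groups. CENPA measured 11.04, 2.18 and 12.0, which is 10, 2 and 12 reads, so its change of -2.54 (SE 0.32, limma adjusted p = 1.2e-06) carries large counting error. NUF2 measured 12.1, 12.0 and 14.02, from 11, 11 and 14 reads, or 1.65% of its proliferating level. CENPM had 7, 10 and 4 reads and OIP5 6, 7 and 10.

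By role, the dual knockdown lowered all 4 deposition factors, 7 of 9 members of the centromere-associated network, 5 of 7 of the outer kinetochore, 4 of 5 of the corona, 5 of 6 of the checkpoint and 3 of 4 of the passenger complex. The median changes were -1.88, -1.12, -1.23, -0.53, -2.04 and -2.15 in that order. CENPF measured 97.1, 152 and 103.1 against 333 to 616, and TTK 23.2, 26.2 and 23.0 against 81.2 to 113. AURKB measured 18.8, 17.5 and 24.0 against 77.3 to 136. All 3 genes were lower than in any library of another group. KNTC1 fell less, by -0.36, at 157, 164 and 193, and this call was lost without dual knockdown replicate 1 (-0.30) or 2 (-0.33). CENPJ measured 146, 175 and 119, and its change of -0.27 (limma adjusted p = 0.0435) was lost without dual knockdown replicate 1 (-0.27) or 3 (-0.13), NT3 replicate 2 (-0.23) or NT4 replicate 3 (-0.23). CENPT rose to its highest mean, at 1014, 947 and 1005 against 691 to 907 in controls, a change of 0.37 (SE 0.07, limma adjusted p = 9.1e-05) without overlap. All 7 cycling-cell genes fell, with a median change of -1.55, and their part was not tested.

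The members that fell in senescence but passed in no knockdown were NSL1, PMF1, MAD1L1 and INCENP. The 4 knockdown comparisons share their control libraries, so the values are given side by side. NSL1 changed by 0.18, 0.02, 0.12 and 0.06 after CCND1, CDK4, CDK6 and dual knockdown. In the dual knockdown it measured 349.9, 355 and 382 against 305 to 398 in controls. MAD1L1 changed by 0.04, 0.01, 0.05 and 0.13, and measured 451, 449.9 and 440.5 in the dual knockdown against 351 to 464. PMF1 changed by 0.03, 0.08, -0.04 and 0.13. INCENP changed by -0.03, 0.10, -0.34 and -0.37. Its dual knockdown libraries, at 238, 264 and 258, lay below 5 of the 6 controls but not below NT3 replicate 3, and the limma adjusted p was 0.0514. INCENP thus rested on that library. Without it the changes were -0.50 after CDK6 siRNA (limma adjusted p = 4.8e-05) and -0.53 in the dual knockdown (limma adjusted p = 2.1e-05). NSL1 also passed without it, as higher after CCND1 siRNA (0.23, limma adjusted p = 0.0241), where it measured 376, 392 and 412. MAD1L1 and PMF1 passed in none of the fits that left out 1 library.

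Set directly against each other, CDK6 knockdown gave lower members than CDK4 knockdown. Of 36, 25 were lower and none was higher in limma, at an unadjusted p under 0.05, in edgeR or in DESeq2, against 17.3% and 17.5% of all tested genes, with a median difference of -0.89 against -0.01 over all tested genes. CENPU differed most (-1.63), followed by NDC80 (-1.56) and NUF2 (-1.54). NDC80 measured 72.3, 62.4 and 69.0 after CDK6 siRNA beside 189 to 219 after CDK4 siRNA. NUF2 measured 29.5, 28.0 and 40.2 beside 82.4 to 111.6. Neither gene overlapped. ZWILCH, which rose against the controls after CDK6 siRNA, did not differ past the threshold here (0.15, SE 0.10, limma adjusted p = 0.29).

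The dual knockdown was lower than either CDK6 or CCND1 knockdown. Against CDK6 knockdown, 23 members were lower and none higher, compared with 6.94% and 6.05% of all tested genes, and the median difference was -0.76, against 0.00 over all tested genes. Against CCND1 knockdown, 25 were lower and none higher, compared with 11.2% and 9.12%, and the median difference was -1.02, against -0.003 over all tested genes. In neither comparison was a member higher at an unadjusted p under 0.05, in edgeR or in DESeq2. BIRC5 led both comparisons. It measured 242, 205 and 279 after CDK6 siRNA and 227, 273 and 249.3 after CCND1 siRNA, and the dual knockdown differed from them by -2.08 (SE 0.14, limma adjusted p = 1.2e-09) and -2.13 (SE 0.14, limma adjusted p = 4.8e-10). ZWILCH, at 295, 229 and 298 in the dual knockdown, was lower than after CDK6 siRNA alone by -0.49 (SE 0.10, limma adjusted p = 0.0022). CENPA differed from CDK6 knockdown by -1.34 (limma adjusted p = 0.017), and by -0.68, not past the threshold, without dual knockdown replicate 2, the library with 2 CENPA reads. This call was also lost without CDK6 knockdown replicate 3 (-1.18).

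The change that went with CDK4 siRNA differed with and without CDK6 siRNA. This difference was tested on the log2 scale as a departure, the effect of both siRNAs minus the 2 single effects added up. Of 36 members, 22 lay below the sum and none above, against 3.71% below and 2.63% above among all tested genes. None lay above it at an unadjusted p under 0.05, in edgeR or in DESeq2. The median departure was -0.80 over the members and 0.00 over all tested genes. BUB1 departed most. Its mean changed by 0.52 when CDK4 siRNA was compared with controls and by -1.93 when it was added to CDK6 siRNA, a departure of -2.45 (SE 0.32, limma adjusted p = 4.0e-05). The libraries behind this were 342, 363 and 288 after CDK4 siRNA, 140.5, 84.8 and 158 after CDK6 siRNA and 27.6, 54.6 and 21.02 after both. BIRC5 departed by -2.35 (SE 0.18, limma adjusted p = 3.9e-08), with 547, 650 and 554 after CDK4 siRNA alone. NDC80 departed by -2.24 (SE 0.28, limma adjusted p = 2.4e-05). In these 3 genes the dual knockdown libraries lay below all libraries of both single knockdowns.

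By role, the departure passed in 4 of 6 checkpoint members, 3 of 4 of the passenger complex, 4 of 5 of the corona, 4 of 7 of the outer kinetochore, 5 of 9 of the centromere-associated network, 1 of 4 deposition factors and CENPJ. CENPF departed by -2.07, and TTK, a checkpoint kinase like BUB1, by -2.01. CENPT, INCENP, NSL1 and MAD1L1 departed by -0.14, -0.12, -0.08 and 0.08, none past the threshold. The calls of CDCA8, AURKB, KNTC1 and CENPJ lay near the threshold and were lost in several of the fits that left out 1 library, often with a value about as large. CDCA8 departed by -0.71, and lost its call without CDK4 knockdown replicate 2 (-0.65), CDK6 knockdown replicate 1 (-0.68) or 3 (-0.59), or dual knockdown replicate 1 (-0.57). AURKB departed by -1.08, and lost its call without replicate 1 or 2 of the CDK4 knockdown (-1.06 and -1.08), replicate 1 or 3 of the CDK6 knockdown (-1.08 and -0.85) or replicate 1 or 2 of the dual knockdown (-1.03 and -0.99). KNTC1 departed by -0.70, and lost its call without CDK4 knockdown replicate 2 (-0.65), CDK6 knockdown replicate 3 (-0.60) or dual knockdown replicate 1 (-0.64). CENPJ departed by -0.56. It lost its call without NT3 replicate 1 (-0.55), NT4 replicate 1 (-0.54) or 2 (-0.54), any CDK4 knockdown library (-0.58 to -0.54), CDK6 knockdown replicate 1 (-0.50) or 3 (-0.57), or dual knockdown replicate 1 (-0.57) or 3 (-0.42). Without NT3 replicate 3, 25 members passed. MKI67, TOP2A, CCNA2, CCNB1 and CDK1 also lay below the sum, 5 of the 7 cycling-cell genes, with PCNA and MCM2 not past the threshold, and their part was not tested.

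**Figure D4:**
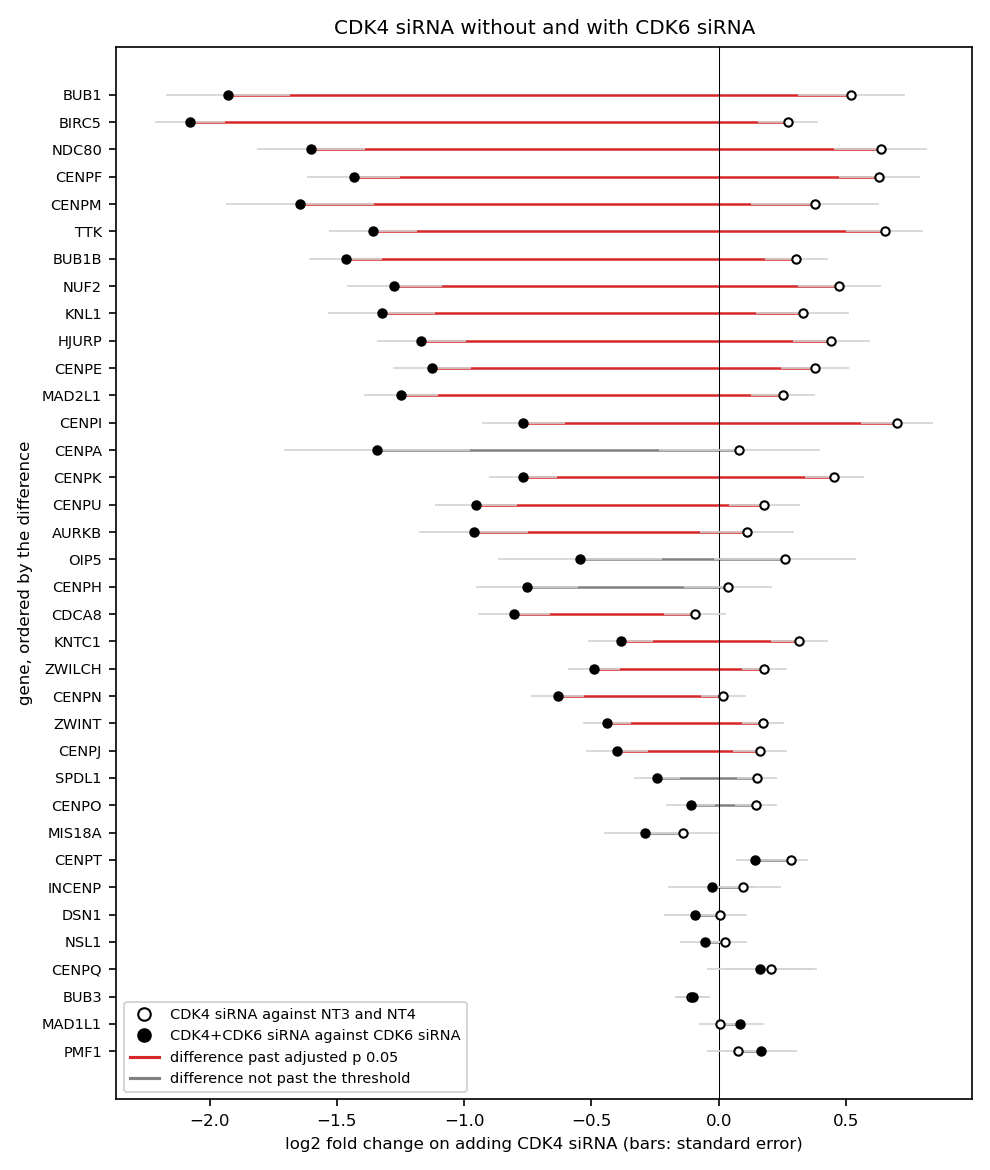
Log2 fold change of 36 members on adding CDK4 siRNA, with open points for CDK4 siRNA against NT3 and NT4, filled points for both siRNAs against CDK6 siRNA, and bars for the standard error. The line between them is red for the 22 members whose departure passed limma's adjusted p of 0.05, led by BUB1, BIRC5 and NDC80, and grey for the 14 others.

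Further genes of the same pathway were examined as a list of 30, of which 19 were tested and 11 were not analysed here. In senescence 16 of the 19 fell and 1 rose, with a median log2 change of -1.45, where 36.1% of all tested genes fell and 32.6% rose. NEK2, a centrosomal and mitotic kinase, changed by -3.27, CDC20, the target of the checkpoint, by -3.12 and PLK1, a mitotic kinase, by -3.06. CENPB and SUGT1 did not pass, and MAD2L1BP, which helps take the checkpoint complex apart, rose by 0.19. CENPC, the platform of the inner kinetochore, changed by only -0.60, and MIS12 by -0.45. After CCND1, CDK4, CDK6 and dual knockdown, 10, 1, 11 and 13 of the 19 fell and 0, 2, 0 and 0 rose. The shares of all tested genes that fell were 14.4%, 7.55%, 20.8% and 21.5%, and those that rose 16.7%, 8.46%, 21.1% and 22.5%. The 1 lower and 2 higher after CDK4 siRNA are thus near the shares of all genes. CDC20 rose by 0.49 and NEK2 by 0.60 after CDK4 siRNA, while HASPIN, a histone kinase at the centromere, changed by -0.71. CDC20 departed from the sum by -1.95 and NEK2 by -2.10, and 7 of the 19 lay below the sum, against 3.71% of all tested genes.

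Some members share exon bases with other genes, and whether reads were counted by strand is not given in the sources used here, so their values are uncertain. OIP5-AS1 covers 63.2% of the exon bases of OIP5 on the other strand, and ADCY3 covers 27.0% of those of CENPO. On the same strand, a gene without a symbol covers 43.2% of the exon bases of MAD1L1, and the readthrough gene PMF1-BGLAP 23.3% of those of PMF1. CENPT shares 10.5% of its exon bases with TSNAXIP1 and 6.71% with THAP11, both on the other strand.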

How the data were processed

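RNA from 21 IMR90 libraries was sequenced. The submitters' processing notes name Trimmomatic (0.38.1), HISAT2 (2.2.1), featureCounts (2.0.3), FastQC (0.74), MultiQC and DESeq2 (2.11.40.8) and the builds hg38/GRCh38, without roles or order. The deposited table holds normalised counts, a signal per gene named by its Entrez identifier, per the file headers. It lists 16383 genes, 19 without a symbol and none with an identifier above 140467. Whether counting used strand is not given in the sources used here.

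Columns were assigned to groups by name. They carry no replicate number of the labels, so the replicate numbers used here follow column order and are only names. Each library's values were whole multiples of 1 step, within a tolerance of 0.05 reads, as read counts divided by 1 size factor are, and this gave back whole reads. The step of the last dual knockdown library was near 1. Recovered totals run from 12892442 to 21822152 reads per library, and the depth limits values of a few reads most.

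Genes with a value of 10 or more in 3 or more libraries were kept (11579). limma 3.58.1 in R 4.3.3 was fitted to log2(value + 1) over all 7 groups with no covariate. Fold changes are on that scale, which understates the change of low genes. P-values were adjusted by Benjamini-Hochberg over all 11579 genes in each of 10 comparisons, with a threshold of 0.05. The reference for the knockdowns was the mean of both controls. The fit was run on simulated counts with known changes in the dual knockdown only. Every simulated library had the same spread setting, so this run did not mimic NT3 replicate 3. Alternatives were another pseudocount, other filters, median centring, quantile normalization, each control alone, the groups compared alone, each library left out, and edgeR 4.0.16 (quasi-likelihood) and DESeq2 1.42.0 on the recovered reads.

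Values in every library were given by rule for the members with the largest and the smallest change of each role in senescence, any that did not fall there, those called against the direction of most members, and those with the 3 largest departures. Others shown with library values, such as CENPU and CDCA8, were picked after their values were seen. The members, the lists and this rule were chosen with earlier results of these data known. Promoters came from RefSeq and exon overlaps from GENCODE.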

Additional observations from a re-analysis of the deposited data

Results flagged for a closer look

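For 22 members, the log2 change that went with CDK4 siRNA differed between cells without and with CDK6 siRNA. The difference was tested in limma as a departure, the effect of both siRNAs minus the 2 single effects added up. All 22 lay below that sum, where 3.71% of all tested genes lay below it and 2.63% above. The difference in CDK4 siRNA effect cannot be told apart from a difference in siRNA dose or total siRNA. Both CDK4 siRNA effects are given for each, first against NT3 and NT4 and then against CDK6 siRNA. In the checkpoint, BUB1 departed by -2.45 (0.52 and -1.93), TTK by -2.01 (0.65 and -1.36), BUB1B by -1.77 (0.31 and -1.47) and MAD2L1 by -1.50 (0.25 and -1.25). In the passenger complex, BIRC5 departed by -2.35 (0.27 and -2.08), AURKB by -1.08 (0.11 and -0.96) and CDCA8 by -0.71 (-0.09 and -0.80). The outer kinetochore held NDC80 at -2.24 (0.64 and -1.60), NUF2 at -1.75 (0.47 and -1.28), KNL1 at -1.65 (0.33 and -1.32) and ZWINT at -0.61 (0.17 and -0.44).

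In the corona, CENPF departed by -2.07 (0.63 and -1.43), CENPE by -1.50 (0.38 and -1.13), KNTC1 by -0.70 (0.32 and -0.39) and ZWILCH by -0.67 (0.18 and -0.49). In the centromere-associated network, CENPM departed by -2.02 (0.38 and -1.65), CENPI by -1.47 (0.70 and -0.77), CENPK by -1.22 (0.45 and -0.77), CENPU by -1.13 (0.18 and -0.95) and CENPN by -0.65 (0.02 and -0.63). Of the deposition factors HJURP departed by -1.61 (0.44 and -1.17), and the centriole gene CENPJ by -0.56 (0.16 and -0.40). CDCA8 was the 1 gene of the 22 whose fitted change was below 0 in both settings. In the remaining 21 the fitted change was above 0 after CDK4 siRNA alone, close to 0 in CENPN, and below 0 when CDK4 siRNA was added to CDK6 siRNA, and 6 of the 21 passed the threshold as higher after CDK4 siRNA alone.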

How the results depend on the processing

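Over the alternatives run, no member reversed its direction among called values. Counts of members called moved by more than 1.5 times in 2 comparisons. In NT4 against NT3, 6 members were called, 1 when the 2 groups were fitted alone, and 2 to 8 when 1 library was left out. After CDK4 siRNA, 7 were called, 13 with edgeR and 13 with DESeq2 on the recovered reads, all higher, and 4 to 10 when 1 library was left out. With NT3 as the only control, 5 were higher and MIS18A was lower (-0.46). In the other 8 comparisons, counts stayed within 1.5 times under the alternatives run, and leaving out 1 library gave 35 in senescence, 17 to 22 after CCND1 siRNA, 20 to 26 after CDK6 siRNA, 26 to 31 in the dual knockdown and 18 to 25 for the departure. With libraries centred on their medians, the all-gene median in senescence went from -0.03 to 0.09 and the share of calls that were higher from 47.4% to 57.9%, with 35 members still lower and 1 higher. No paired analysis was possible because the columns carry no replicate numbers of the labels. The column names do carry library codes in 3 consecutive runs with 1 library of each irradiated group, and what a run stands for is not given. A block on these runs, chosen after seeing the data, changed no count by more than 1.5 times. In the dual knockdown, CENPA, CENPM, NUF2 and OIP5 had 2 to 14 reads per library and are limited by depth. Reads were also few there for other members, among them NDC80 (16 to 25), AURKB (16 to 24), TTK (21 to 24) and BUB1 (21 to 50).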
